A study of Mus musculus with 8 samples.

Results

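Events of alternative donor choice, at the 5′ splice site (A5SS), and of alternative acceptor choice, at the 3′ splice site (A3SS), were described in Prmt5-null iGBs. An A5SS event is an exon that ends at either of a pair of donors, and an A3SS event is an exon that begins at either of a pair of acceptors, so that a long and a short form of the exon share all but an alternative part. Every row of the 2 deposited tables was taken, which gave 190 A5SS and 128 A3SS events, 318 of the 1918 deposited splicing events. The events lay in 312 genes, of which 6 were in both tables. A gene appeared once in a table, and the study's methods describe keeping only the most significant event of a gene. Further events of these genes are therefore not counted here. The long-form level is the share of reads, from 0 to 1, that belong to the long form. The tables hold events that the authors selected for significance and for a difference of over 0.1 between the genotypes, in genes with a mean normalized count above 50, so the levels of both genotypes chose the events and are given as a description without a test.

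iGBs are mouse splenic B cells that take on features of germinal centre B cells when grown on 40LB feeder cells, a fibroblast line that displays CD40L and BAFF, with IL-4 at 1 ng/mL. Prmt5-null iGBs came from Prmt5 F/F Cγ1-cre mice and control iGBs from Cγ1-cre mice, both of strain C57BL6/J, with 4 libraries per genotype made at day 4 after plating. Cγ1-cre acts only once B cells are activated to transcribe the Cγ1 locus, and both genotypes carried the recombinase. B cells were parted from the feeder by elutriation. The design text names 2 experiments with both genotypes in each, which no label ties to the libraries. Library totals ran from 36731721 to 50366174 reads. The normalized count of Prmt5 itself was 1291, 1994, 1060 and 1808 in the Prmt5-null and 13088, 11084, 11657 and 11267 in the control libraries, which did not overlap (log2 change -2.98, SE 0.17, adjusted p = 6.14e-06 with limma, exact permutation p = 0.0286, two-sided, the smallest that 4 against 4 libraries can give).

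A donor is read first by the U1 snRNP, which pairs with the last exon bases and the first intron bases, whereas an acceptor is read by U2AF, which binds the pyrimidine tract and the AG at the intron's end. Prmt5 adds symmetric dimethyl groups to arginines of Sm proteins, which form the core of the spliceosomal snRNPs. When a second donor or acceptor lies close by, the choice between them adds or removes a short stretch of the messenger RNA. A stretch whose length is a multiple of 3 keeps the reading frame, and another length shifts it. A stop codon well upstream of the last exon junction is a known trigger of nonsense-mediated decay.

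The sequences below show what the choice is made between. They were read from GENCODE release M21 transcripts on build GRCm38, in which the intron bases of one form lie within an exon of another transcript. Donor windows hold 3 exon bases and 6 intron bases, with the first 2 intron bases in capitals. The first set gives the donor of the short form in events whose long form was higher in Prmt5-null iGBs.
Ezh2, chr6:47576557-47576565, minus strand: tctGTgagc
Pds5b, chr5:150796668-150796676, plus strand: cttGTaagg
Rbm25, chr12:83639189-83639197, plus strand: tctGTaagt
Trmt1, chr8:84689347-84689355, plus strand: cctGTgagc
Mettl17, chr14:51889215-51889223, plus strand: aagGCaagt
The second set gives the short-form donor in events whose long form was lower in Prmt5-null iGBs.
Rnf220, chr4:117285923-117285931, minus strand: cagGTatgt
Bdp1, chr13:100049854-100049862, minus strand: gagGTaaga
Scaf4, chr16:90249633-90249641, minus strand: cagGTcagc
Trafd1, chr5:121373144-121373152, minus strand: gagGTacgg
Birc6, chr17:74606121-74606129, plus strand: caaGTacgt
In the first set 4 of the 5 donors ended their exon with T and the other began its intron with GC, and in the second set 4 of the 5 donors ended their exon with G.

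Acceptor windows hold 20 intron bases and 3 exon bases, with the last 2 intron bases in capitals. The long-form and short-form acceptors are shown for events in which both could be read, because they span the range from near-equal to unequal pairs. In Cdc7 and Clk2 annotated transcripts also use the long-form acceptor with a separate exon inside the alternative part, as described further on.
Cdc7 long form, chr5:106974581-106974603, plus strand: tgtttctgttggtgttgtAGgag
Cdc7 short form, chr5:106975465-106975487, plus strand: tgtcacaatttcttttgtAGctc
Clk2 long form, chr3:89169595-89169617, plus strand: ccccccccaccccccgacAGcag
Clk2 short form, chr3:89170029-89170051, plus strand: cctactttctttcgtttcAGatg
U2af2 long form, chr7:5067334-5067356, plus strand: catccccaccctggccctAGcac
U2af2 short form, chr7:5067524-5067546, plus strand: ccccctccccccttccccAGtcg
Nfya long form, chr17:48399066-48399088, minus strand: cttcctcttcctgttctcAGcag
Nfya short form, chr17:48399063-48399085, minus strand: cctcttcctgttctcagcAGcag
The 2 acceptors of Nfya lay 3 bases apart, as a tandem of AG ends.

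Short alternative parts of genes described further on are shown here whole, of which that of Chkb shifts the frame and the others add or remove a few residues, with the donor's first 2 bases (A5SS) or the acceptor's AG (A3SS) in capitals.
Ezh2 A5SS, chr6:47576536-47576562, minus strand: GTgagctcattgcgcgggactagggag
U2af2 A5SS, chr7:5075228-5075239, plus strand: GTgagcctcccg
Trafd1 A5SS, chr5:121373138-121373149, minus strand: GTacggagctgg
Scaf4 A5SS, chr16:90249627-90249638, minus strand: GTcagcatccag
Birc6 A5SS, chr17:74606124-74606135, plus strand: GTacgtttactg
Chkb A3SS, chr15:89427400-89427427, minus strand: ctccattttattcgccattatctggcAG

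The alternative parts of both classes were alike in their typical length but not in their shortest members. The median length was 61 bases for A5SS events (quartiles 15 and 184.8, range 3 to 3327) and 61.5 bases for A3SS events (quartiles 18 and 188.5, range 3 to 7347). A part of exactly 3 bases was found in 21 A3SS events (16.4%, 95% Wilson interval 11 to 23.8) and in 1 A5SS event (0.526%, 0.093 to 2.92), a difference of -15.88 percentage points for A5SS against A3SS (95% Newcombe interval -23.27 to -9.96). A part of 12 bases was instead found in 10 A5SS events and 1 A3SS event, and a part of 4 bases in 7 and 1. Intervals here and elsewhere treat each event as 1 count and cover counting error only.

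Of the 21 A3SS parts of 3 bases, 19 read cag, 1 aag and 1 tag, each a second acceptor that follows the first directly. The long form of those that read cag was higher in Prmt5-null iGBs in 10 and lower in 9. Reads behind them were few, with a median of 2 reads in the shallowest library, and 3 of the 21 had 20 or more reads per library. Nfya (a CCAAT-box transcription factor) had control levels of 0.328, 0.246, 0.854 and 1 against 1, 1, 1 and 0.709, on as few as 1 read in a library. Phf21a (a histone-binding subunit of a corepressor complex) had 0.661, 0.21, 0.619 and 0.61 in control against 0.782, 0.861, 0.864 and 0.566.

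The 7 A5SS parts of 4 bases all had a higher long form in Prmt5-null iGBs, beside 64.7% of all A5SS events. Of the 7, 3 had 20 or more reads per library. The 7 parts were those of Lig3, Pvt1, Rps6kb2 and Smim8, as well as Zfp202, Zfp961 and Zscan25, which were chosen after their values were seen. Lig3, the DNA ligase of base excision and single-strand break repair, had control levels of 0.612, 0.673, 0.676 and 0.452 and Prmt5-null levels of 0.736, 0.845, 0.839 and 0.867, which did not overlap. Pvt1, a long noncoding RNA next to Myc, had 0.812, 0.798, 0.785 and 0.805 in control against 0.894, 0.908, 0.917 and 0.91, likewise without overlap. Smim8 reached 1 in each Prmt5-null entry, on as few as 1 read in a library. Of the 10 parts of 12 bases, 3 had a higher and 7 a lower long form.

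**Figure D1:**
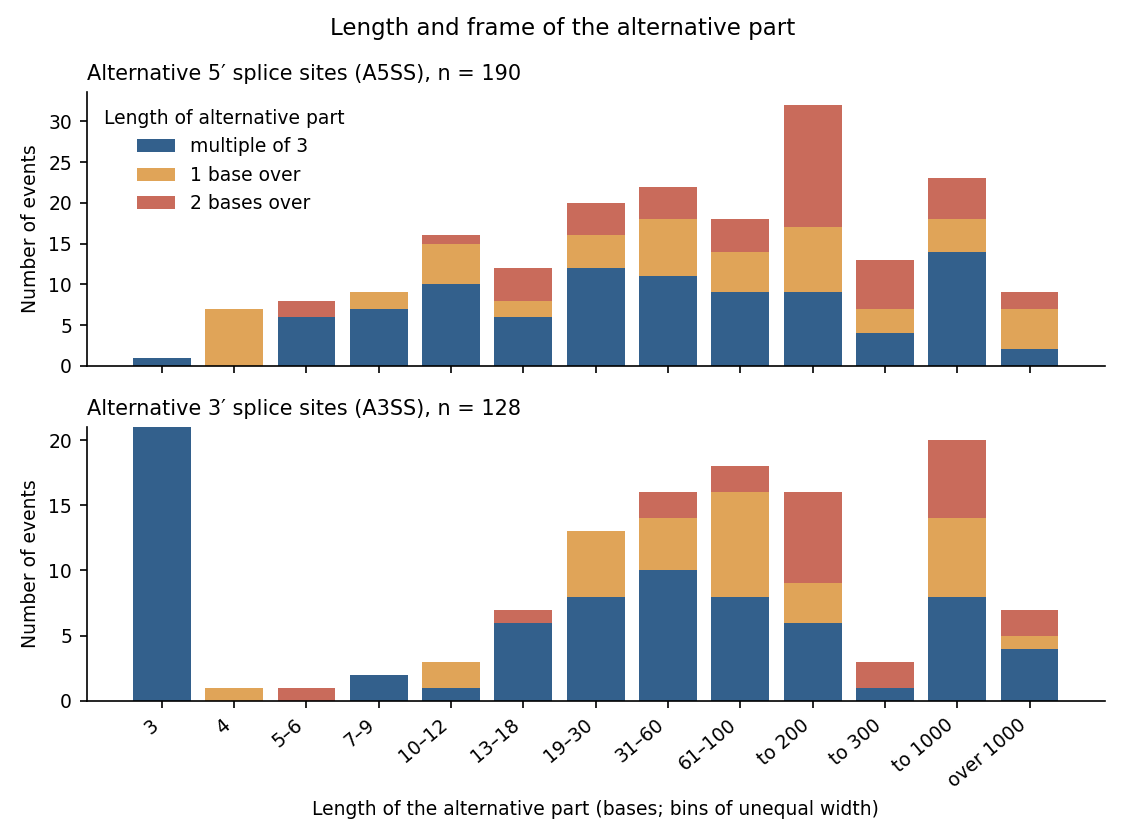
Number of events (vertical axis) by length of the alternative part in bases (horizontal axis, bins of unequal width, the longer ones named by their upper end), for 190 A5SS (top) and 128 A3SS events (bottom), coloured by whether the length is a multiple of 3 or leaves 1 or 2 bases over. Parts of 3 bases number 21 in A3SS and 1 in A5SS events, and parts of 4 bases 1 and 7.

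Most parts in coding sequence had a length that is a multiple of 3 in both classes, which does not exclude a stop codon within the part. A length that is a multiple of 3 was found in 91 of 190 A5SS (47.9%, interval 40.9 to 55) and 75 of 128 A3SS events (58.6%, 49.9 to 66.8), and the interval of the difference, -21.44 to 0.48 percentage points, held 0. Among events with 20 or more reads per library the shares were 51.1% of A5SS and 50% of A3SS events. Among events whose part lay in annotated coding sequence the shares were 75 of 124 (60.5%) and 61 of 101 (60.4%). Where both forms also belonged to protein-coding transcripts, they were 59 of 72 A5SS (81.9%) and 50 of 65 A3SS (76.9%). Parts in a UTR were a multiple of 3 in 9 of 34 A5SS events (26.5%), and those in noncoding transcripts in 5 of 24 (20.8%).

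The classes differed in where the part lay. A UTR held the part in 34 A5SS (17.9%) and 7 A3SS events (5.47%), a difference of 12.43 percentage points (interval 5.21 to 19.11), and 27 of the 34 were in a 5′ UTR. Coding sequence held it in 124 A5SS (65.3%) and 101 A3SS events (78.9%), a difference of -13.64 points (-22.98 to -3.5). Every A3SS part ended with AG, and 183 A5SS parts began with GT and the other 7 with GC.

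In 55 events the long form's junction was not its own. In 30 A5SS (15.8%) and 25 A3SS events (19.5%), annotated transcripts used the long form's junction with a separate exon that lies inside the alternative part, parted from the short exon by an intron. Reads over such a junction cannot tell the extended exon from the separate exon, and the short form then includes transcripts that skip that exon. These parts were long, with medians of 333.5 bases (A5SS) and 603 bases (A3SS), and none was under 84 bases. Without them the median length was 40.5 bases in A5SS and 39 bases in A3SS events. A length that is a multiple of 3 was then found in 79 of 160 A5SS (49.4%) and 65 of 103 A3SS events (63.1%). They made up 19 of the 32 A5SS and 21 of the 27 A3SS parts over 300 bases.

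The long form was higher in Prmt5-null iGBs in 123 A5SS (64.7%) and 65 A3SS events (50.8%). Events with and without a separate exon were counted apart. Among A5SS events with a separate exon the long form was higher in 11 of 30 (36.7%), and among the others in 112 of 160 (70%). Among A3SS events these counts were 16 of 25 (64%) and 49 of 103 (47.6%). The A5SS and A3SS events without a separate exon and with 20 or more reads per library gave 74 of 104 (71.2%) and 23 of 52 (44.2%).

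The direction in A5SS events also varied with the annotation of the part, counted over events with and without a separate exon. The long form was higher in 29 of 34 events in a UTR (85.3%), 18 of 24 in noncoding transcripts (75%) and 72 of 124 in coding sequence (58.1%). Without the events with a separate exon these counts were 26 of 31 (83.9%), 18 of 22 (81.8%) and 64 of 99 (64.6%). The counts that follow include the events with a separate exon and were not repeated without them. The long form was higher in 34 of 41 A5SS events in which only the short form belonged to a protein-coding transcript (82.9%). It was higher in 13 of 32 in which only the long form did (40.6%). The same counts in A3SS events were 13 of 19 (68.4%) and 11 of 25 (44%), and 51 of 101 A3SS events in coding sequence had a higher long form (50.5%).

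**Figure D2:**
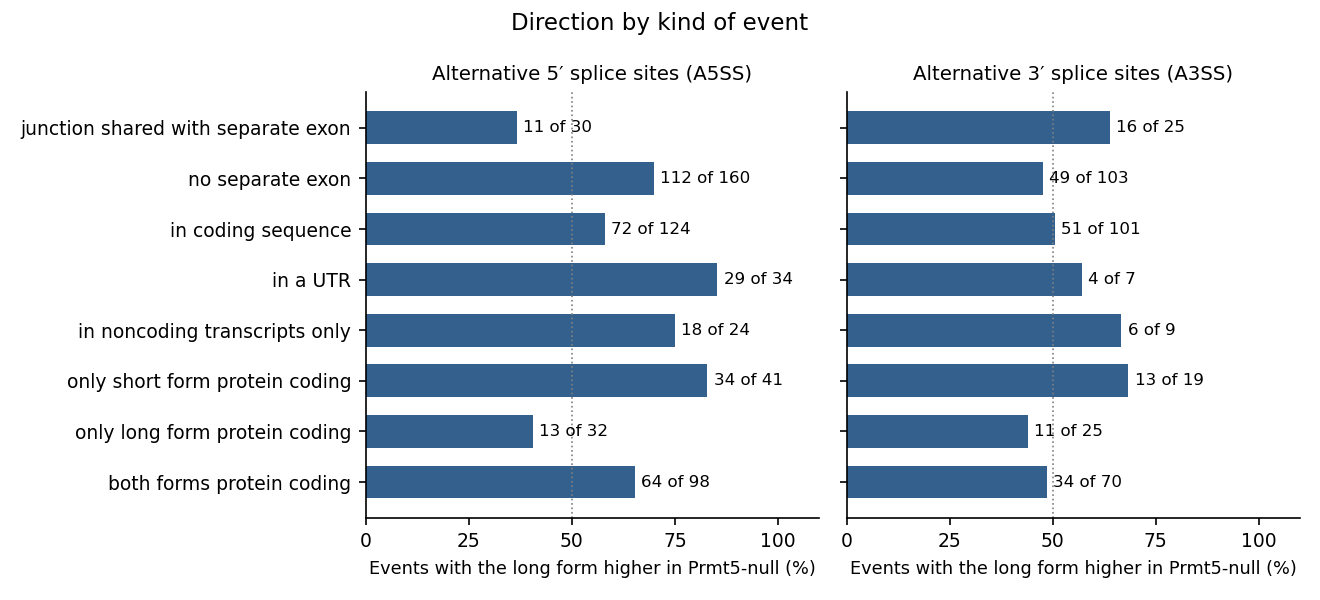
Share of events, in percent (horizontal axis), whose long form was higher in Prmt5-null iGBs, by kind of event, for A5SS (left) and A3SS (right), with counts beside the bars and a dotted line at 50%. A5SS bars run from 36.7% with a separate exon to 85.3% in a UTR, and A3SS bars from 44% to 68.4%. The bars by annotation include the events with a separate exon.

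Levels at baseline spanned the whole scale in both classes. The median control level was 0.544 in A5SS (quartiles 0.261 and 0.751) and 0.633 in A3SS events (0.42 and 0.824), and the median Prmt5-null level was 0.63 and 0.663. A control level of at most 0.1 was found in 16 A5SS and 5 A3SS events, all with a higher long form in Prmt5-null iGBs, which the bounds of the scale fix. A control level of at least 0.9 was found in 16 A5SS and 14 A3SS events, all with a lower one. The more abundant form changed in 33 A5SS events, from short to long in 17 and from long to short in 16, and in 28 A3SS events, with 14 each way. The median absolute difference was 0.159 in A5SS and 0.173 in A3SS events.

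The 4 entries of the genotypes did not overlap in 98 A5SS (51.6%) and 60 A3SS events (46.9%), against 50.8% of all 1918 deposited events, and nothing is read from these counts since the events were selected on that contrast. Every library held 20 or more reads in 131 A5SS and 74 A3SS events. In the levels used here, from junction and target reads, 6 A5SS and 3 A3SS events differed by less than 0.1. The study's methods drew on these levels and on those from junction reads alone. On both sides of the authors' limit of 0.1, Hp1bp3 and Ezh2 lay just inside with differences of 0.1, and Tbce just outside with 0.0992. Among A3SS events Nob1 and Tank lay inside with 0.1 and -0.101, and Usp48 and Clcn3 outside with -0.0998 and 0.0895. The parts of Nob1 and Tank hold a separate exon.

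**Figure D3:**
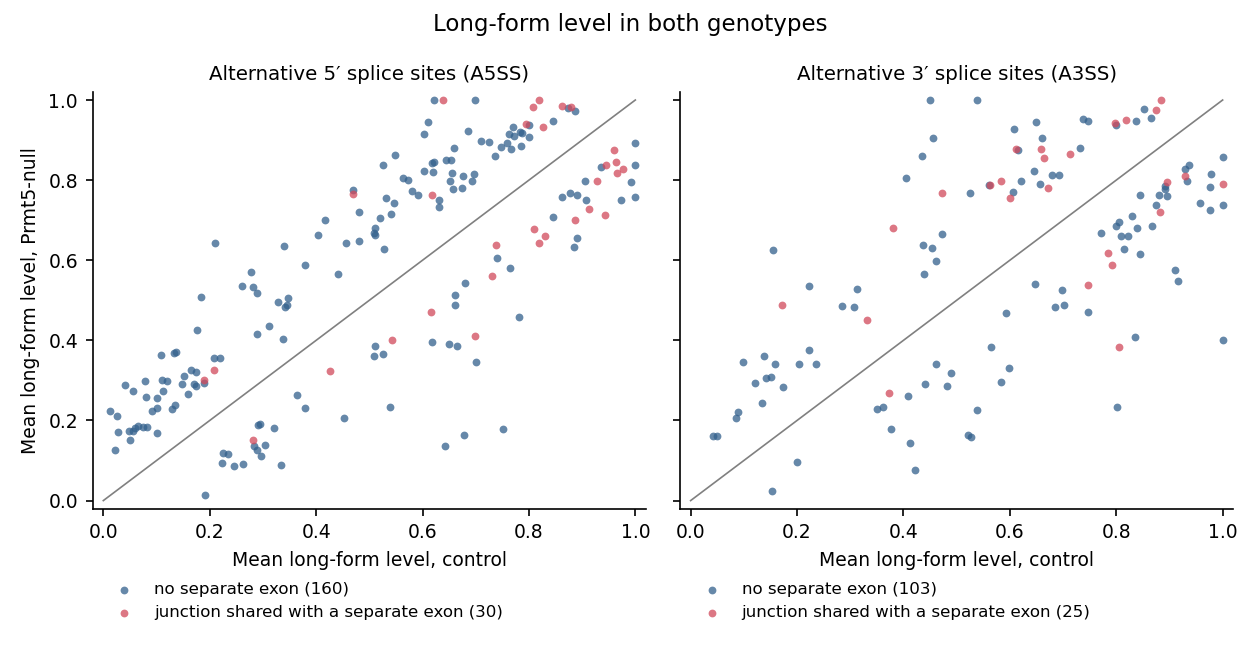
Mean long-form level of each event in Prmt5-null iGBs (vertical axis) against control iGBs (horizontal axis), both as a share of reads, for A5SS (left) and A3SS (right), with events whose long-form junction is shared with a separate exon in red. The empty band along the diagonal follows from the authors' selection, and A5SS points lie above the line in 123 of 190 events.

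The donors of the short form had lower scores where the long form was higher, a sequence measure that the selection did not use, although the direction comes from the selected contrast, so no test is given. Each site was scored in bits with a log2-odds matrix made from 34198 annotated GT donors or 29904 annotated AG acceptors. These were sites whose whole window lay within an exon of another transcript, because intron bases could be read only there. A higher score is a closer match to the average of these sites, which need not resemble annotated sites in general. The short-form donor had a median score of 6.11 (quartiles 4.8 and 7.46, n = 116) where the long form was higher in Prmt5-null iGBs and of 7.97 (6.76 and 9.29, n = 67) where it was lower. The short-form acceptor of A3SS events had medians of 8.08 (n = 52) and 8.15 (n = 51). Without the events with a separate exon the donor medians were 6.17 (n = 105) and 7.5 (n = 48), and with 20 or more reads per library 6.17 (n = 79) and 8.11 (n = 48).

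The bases of the short-form donor were compared one by one. A G as the last exon base was found in 80 of 116 short-form donors (69%) where the long form was higher and in 59 of 67 (88.1%) where it was lower. Among the donors of the matrix, which are not all annotated donors, the share was 77.5%. An A before it was found in 56 of 116 (48.3%), 48 of 67 (71.6%) and 59.7%. On the intron side, G at the fifth intron base was found in 78 of 116 (67.2%), 53 of 67 (79.1%) and 72.8%, and A at the fourth in 58.6%, 55.2% and 62.5%.

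Both sites could be read in 61 A5SS and 50 A3SS events. Where the A5SS long form was higher, its donor outscored that of the short form in 27 of 44 events, with a median difference of 1.28 bits, and where it was lower in 3 of 17, with a median of -1.87 bits. The interval of the first share, 46.6% to 74.3%, held 50%, and that of its median, -0.585 to 1.758 bits, held 0. Over all 61 events the long donor scored higher in 30. The A3SS counts were 15 of 22 (median 1.89 bits) and 12 of 28 (median -1.36 bits). The median differences of the A3SS events with 20 or more reads per library were 0.002 (n = 15) and -1.49 bits (n = 19). Pds5b, a cohesin regulator, is 1 of the events with the higher score at the long donor. Its donors lie within 6 bases, with 5.82 bits for the short and 7.98 bits for the long donor. The control levels of 0.372, 0.276, 0.188 and 0.323 stood below the Prmt5-null levels of 0.618, 0.438, 0.508 and 0.506. Birc6 (a ubiquitin ligase that inhibits apoptosis) had a lower A5SS long form, with 6.78 bits for the short and 5.02 bits for the long donor.

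**Figure D4:**
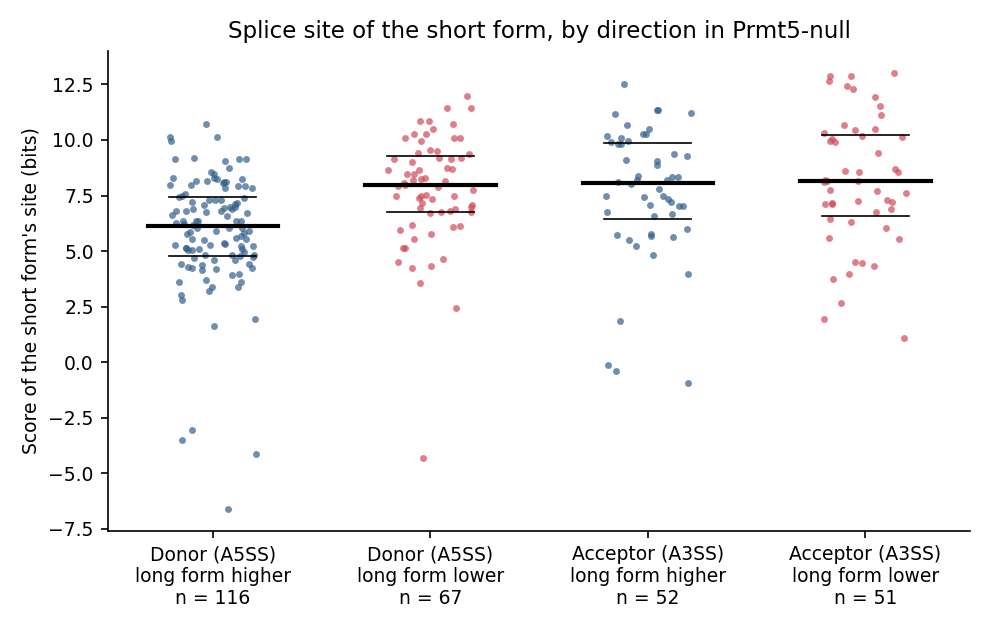
Score of the short form's splice site in bits (vertical axis) for donors of A5SS and acceptors of A3SS events, by whether the long form was higher or lower in Prmt5-null iGBs; each point is 1 event, the thick line the median and the thin lines the quartiles. Donor medians are 6.11 and 7.97 bits, and acceptor medians 8.08 and 8.15 bits.

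Of the 7 events with a GC donor for the short form, 6 had a higher long form, beside 64.7% of all A5SS events. Lig3, Rps6kb2 and Smim8 are also among the parts of 4 bases. The matrix was made from GT donors, so a GC donor scores low by construction. Mettl17 (a mitochondrial ribosome assembly factor) had a GC donor of -3.07 bits for its short form and a GT donor of 5.9 bits for its long form, with control levels of 0.1, 0.2, 0.279 and 0.462 and Prmt5-null levels of 0.606, 0.489, 0.449 and 0.595. The groups overlapped in 1 control entry. Rps6kb2, an S6 kinase, had a GC donor of -6.6 bits, on as few as 2 reads in a library.

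Among A5SS events with 20 or more reads per library, the long form was higher by most in Slc25a40, Nktr, Alkbh3, Rbm25 and Mettl17. Slc25a40, a mitochondrial carrier, had control levels of 0.616, 0.648, 0.615 and 0.672 and a Prmt5-null level of 1 in all 4 entries, over a part of 1783 bases that holds a separate exon. Nktr, a cyclophilin with arginine and serine rich repeats, had 0.562, 0.58, 0.703 and 0.568 against 0.759, 1, 1 and 0.903. Neither pair of groups overlapped.

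Alkbh3, a DNA and RNA demethylase of alkylation repair, had control levels of 0.422, 0.588, 0.414 and 0.455 and Prmt5-null levels of 0.871, 0.674, 0.695 and 0.818. Rbm25, which takes part in donor choice by U1 snRNP, had 0.432, 0.416, 0.349 and 0.47 against 0.6, 0.795, 0.555 and 0.851, with its part of 184 bases in the 5′ UTR. The Prmt5-null entries stood above all control entries in both genes. Of these 5 events, the part of Alkbh3 also holds a separate exon.

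Among events with the same minimum of reads, the A5SS long form was lower by most in Rnf220, Zfp384, Trafd1, Tmem234 and Bdp1. Rnf220, a ubiquitin ligase, had control levels of 0.758, 0.832, 0.745 and 0.793 and Prmt5-null levels of 0.447, 0.493, 0.421 and 0.474, and the short form removes 26 residues in frame. Trafd1, an inhibitor of innate immune signalling, had 0.596, 0.696, 0.707 and 0.661 against 0.381, 0.429, 0.361 and 0.377, and its short form lacks 4 residues. The groups did not overlap in either gene.

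Bdp1, a subunit of the TFIIIB complex of RNA polymerase III, had control levels of 0.91, 0.86, 0.908 and 0.86 and Prmt5-null levels of 0.684, 0.628, 0.662 and 0.559. Tmem234 had 0.671, 0.663, 0.567 and 0.695 against 0.429, 0.433, 0.359 and 0.342, with donors of 8.23 bits (short) and 4.66 bits (long). Zfp384 had 0.449, 0.681, 0.856 and 0.81 against 0.499, 0.456, 0.365 and 0.323. Only the groups of Zfp384 overlapped among these 3, and its part holds a separate exon.

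Again among events with 20 or more reads per library, the A3SS long form was higher by most in Dlgap4, Cdc7, Clk2, Ttc14 and Ccnl2, and all but the event of Ttc14 share the long-form junction with a separate exon. Cdc7, the kinase that fires replication origins, had control levels of 0.371, 0.384, 0.377 and 0.39 and Prmt5-null levels of 0.721, 0.651, 0.618 and 0.729. Clk2, a kinase of SR splicing factors, had 0.488, 0.469, 0.443 and 0.493 against 0.822, 0.768, 0.739 and 0.747. In both genes the entries of a genotype lay close together and the groups stood well apart.

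The 2 acceptors of Cdc7 had equal scores (8.22 bits each), while the long form of Clk2 had the weaker acceptor (6.01 against 12.5 bits). Both events share the long-form junction with a separate exon, so their levels are not read as a choice between these acceptors alone. Ccnl2, a cyclin found in splicing speckles, had control levels of 0.5, 0.567, 0.588 and 0.595 and Prmt5-null levels of 0.812, 0.821, 0.71 and 0.807. Dlgap4 had 0.104, 0.134, 0.193 and 0.259 against 0.355, 0.647, 0.41 and 0.543. Ttc14 had 0.517, 0.569, 0.683 and 0.693 against 0.808, 0.912, 0.882 and 0.898, between acceptors of 1.98 and -0.96 bits. The groups of these 3 genes did not overlap.

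With that minimum, the A3SS long form was lower by most in Trmt2a, Chkb, Atxn7l2, Ceacam1 and Birc6. Trmt2a, a transfer RNA methyltransferase, had control levels of 1, 0.7, 0.827 and 0.816 and Prmt5-null levels of 0.459, 0.467, 0.35 and 0.36. Chkb, a choline kinase, had 1, 0.775, 0.714 and 0.886 against 0.575, 0.517, 0.69 and 0.685, and loss of its 28 bases shifts the frame. Birc6 had 0.399, 0.366, 0.398 and 0.347 against 0.137, 0.235, 0.171 and 0.172.

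These 3 genes had no overlap between the genotypes. Ceacam1, an adhesion receptor, had 0.639, 0.531, 1 and 1 in control against 0.681, 0.504, 0.596 and 0.567 in Prmt5-null iGBs, and Atxn7l2 had 1 in all control entries against 1, 1, 0.568 and 0.596. Both overlapped, and both parts hold a separate exon.

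**Figure D5:**
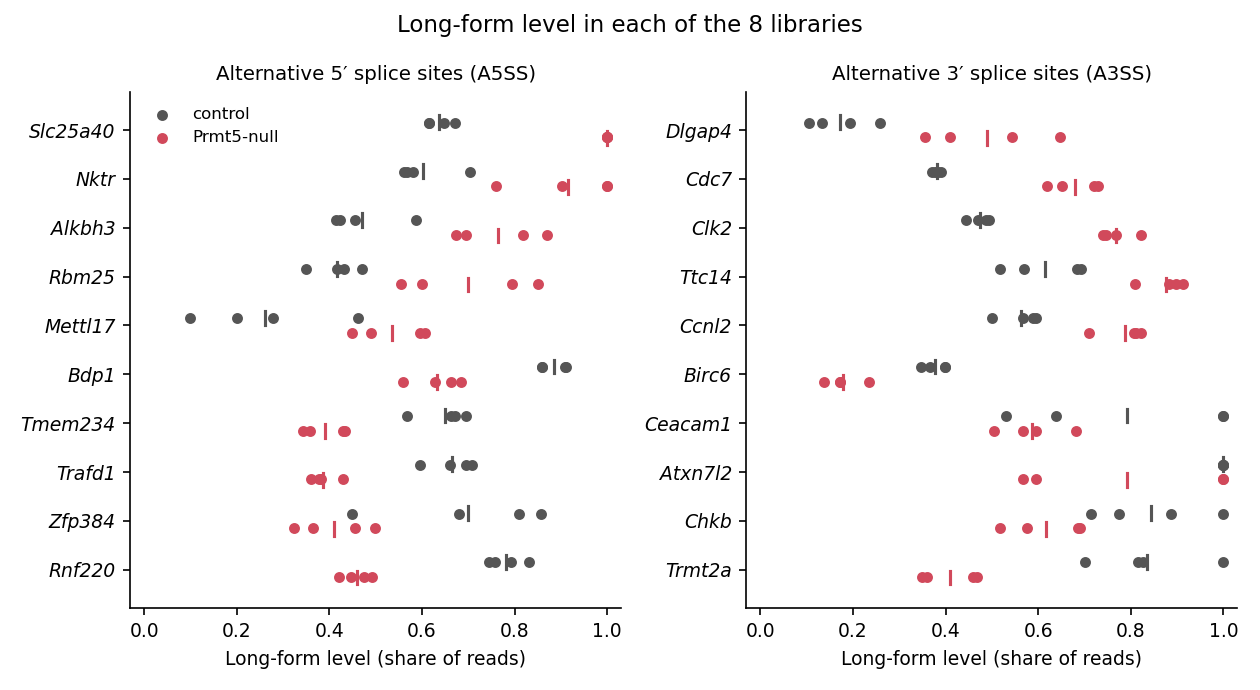
Long-form level, as a share of reads (horizontal axis), in each of the 4 control (grey) and 4 Prmt5-null entries (red) for the 5 largest differences each way in each class, among events with 20 or more reads per library, with a bar at each mean. The groups stand apart in most genes, and those of Mettl17, Zfp384, Ceacam1 and Atxn7l2 overlap.

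The 6 genes with an event in both tables were compared within the gene. Birc6 had a lower long form at both sites, with A5SS levels of 0.419, 0.269, 0.274 and 0.322 in control against 0.205, 0.205, 0.135 and 0.182. Zfp740 and Uba7 also had a lower long form in both tables. U2af2, the large subunit of the factor that binds the pyrimidine tract, had a higher A5SS long form (0.332, 0.366, 0.34 and 0.35 in control, 0.484, 0.495, 0.519 and 0.526 in Prmt5-null iGBs) and a lower A3SS long form (0.104, 0.153, 0.204 and 0.338 against 0.084, 0.156, 0.051 and 0.091).

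The A5SS groups of U2af2 did not overlap and the A3SS groups did. The higher A5SS form adds 4 residues in frame. Trmt1, a transfer RNA methyltransferase, likewise had a higher A5SS form (difference 0.121) and a lower A3SS form (-0.104). Mical1, an oxidase of actin, had a lower A5SS form (-0.0862) and a higher A3SS form (0.136). The A5SS parts of Mical1 and Uba7 hold a separate exon.

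The form that was higher in Prmt5-null iGBs was read in the frame of an annotated protein-coding transcript that holds the other form. This was possible inside coding sequence for 95 A5SS and 66 A3SS events, without those with a separate exon. The higher form kept the frame and the annotated stop in 54 A5SS (56.8%, interval 46.8 to 66.3) and 44 A3SS events (66.7%, 54.7 to 76.8). The change was 1 residue in 16 of the 44 A3SS events and in none of the A5SS events, with medians of 6 residues in A3SS and 7 residues in A5SS events.

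A stop codon more than 50 bases before the last junction arose in 35 A5SS (36.8%) and 20 A3SS events (30.3%). It arose in 31 of 67 A5SS events where the long form was higher (46.3%, 34.9 to 58.1) and in 4 of 28 where the short form was (14.3%, 5.7 to 31.5). The A3SS counts were 11 of 32 (34.4%) and 9 of 34 (26.5%). In 8 of the A5SS and 3 of the A3SS cases the part was a multiple of 3 long and held the stop itself. Ezh2, the methyltransferase of Polycomb complex 2, gained 9 residues in frame, with control levels of 0.814, 0.741, 0.796 and 0.793 and Prmt5-null levels of 0.885, 0.877, 0.897 and 0.886, without overlap.

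Events of 4 gene lists are given by their counts, beside a higher long form in 64.7% of all A5SS and 50.8% of all A3SS events, and nothing is read from them, since the lists were chosen with earlier results known. The 89 listed genes of splicing and RNA processing held 24 A5SS events (long form higher in 16) and 13 A3SS events (7). Scaf4, a reader of the RNA polymerase II tail, had an A5SS level of 0.578, 0.68, 0.724 and 0.82 in control against 0.275, 0.553, 0.233 and 0.327, without overlap. Dhx30, an RNA helicase, had an A3SS level of 0.396, 0.208, 0.451 and 0.568 against 1, 0.496, 0.724 and 1, on as few as 1 read in a library. Pum2, which represses messages through their 3′ UTR, had 0.656, 0.551, 0.625 and 0.323 against 0.368, 0.261, 0.124 and 0.185, which overlapped.

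The 55 listed genes of DNA repair and genome stability held 13 A5SS events (long form higher in 8) and 6 A3SS events (3). Beside Cdc7, Alkbh3, Pds5b and Lig3, Uvssa, which acts in transcription-coupled repair, had an A3SS level of 1, 0.902, 1 and 1 in control against 0.765, 0.884, 0.656 and 0.592, on as few as 9 reads. Bap1, a deubiquitinase of histone H2A, had an A5SS level of 0.878, 0.84, 1 and 0.84 against 0.467, 0.663, 0.496 and 1. Ube2v1, a partner of the enzyme that makes K63-linked ubiquitin chains, had 1, 0.892, 1 and 1 against 0.713, 1, 0.768 and 0.524. The groups overlapped in Bap1 and Ube2v1 but not in Uvssa.

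The 48 listed genes of chromatin and transcription held 15 A5SS events (long form higher in 12) and 19 A3SS events (12). Ikzf1 (Ikaros), a lymphoid transcription factor, had an A5SS level of 0.315, 0.123, 0.491 and 0.184 in control against 0.689, 0.549, 0.646 and 0.396, with 23 bases in the 5′ UTR. Etv4 had an A3SS level of 0.636, 0.906, 0.259 and 0.797 against 1, 0.777, 1 and 1, on as few as 1 read in a library. Both overlapped.

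The 51 listed genes of B cell and immune signalling held 14 A5SS events (long form higher in 6) and 9 A3SS events (2). Relb, a subunit of noncanonical NF-κB, had an A5SS level of 0.732, 0.577, 0.405 and 1 in control against 0.405, 0, 0 and 0.254, on as few as 2 reads in a library. Mef2b, a germinal centre transcription factor, had 1 in each control entry against 0.801, 0.707, 0.763 and 0.763, also on as few as 2 reads. Arhgef1, an exchange factor for RhoA that restrains germinal centre B cells, had an A3SS level of 0.524, 0.551, 0.753 and 0.504 against 0.849, 0.859, 0.787 and 0.699. The part of Arhgef1 holds a separate exon.

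The depth differs widely among these 3, from 2 reads in the shallowest library in Relb and Mef2b to 136 in Arhgef1, and Mef2b alone had no overlap. The 3 longest parts of each class had 122 reads or more in each library. Among A5SS events Tnrc6c had 0.541, 0.739, 0.582 and 0.882 in control against 0.689, 1, 1 and 1 over 3327 bases, Srp19 had 0.75, 0.683, 0.715 and 0.808 against 0.747, 0.516, 0.664 and 0.627 over 2539 bases, and Ppia had 0.889, 0.872, 0.886 and 0.901 against 0.959, 0.957, 1 and 0.979 over 2152 bases. Among A3SS events Fam53a had 0.826, 0.616, 0.904 and 0.793 against 0.593, 0.603, 0.599 and 0.68 over 7347 bases, Clcn3 had 0.924, 0.873, 0.903 and 0.758 against 1, 0.913, 1 and 0.903 over 4230 bases, and Celf1 had 0.823, 0.921, 0.826 and 0.808 against 0.695, 0.828, 0.768 and 0.758 over 3075 bases. Of these 6 only the Ppia groups did not overlap, and the parts of Srp19 and Fam53a hold a separate exon.

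The change of the whole gene between the genotypes was not used to select events, although the authors' minimum mean normalized count of 50 was. With limma (adjusted p below 0.05 and at least 1.5-fold), 9 of the 312 genes were higher in Prmt5-null iGBs (2.88%) and 17 lower (5.45%), against 3.49% higher and 2.99% lower among 16250 genes tested, or 3.14% and 3.17% among those with a mean above 50. The median log2 change of the 312 genes was -0.002, against 0.002 over all genes tested. The median normalized count of the genes with an event was 1996, against 1154 among tested genes with a mean above 50, the limit of the authors' selection. In bulk libraries fewer cells of a type and less RNA per cell cannot be told apart.

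Among genes whose higher form had the early stop, 5 of 55 were lower (9.09%) and 3 higher (5.45%), with a median log2 change of -0.09, and among those with an in-frame change 3 of 97 were lower (3.09%) and 3 higher (3.09%). Among the 3 that were higher are Rrnad1 and Lrdd, with log2 changes of 0.92 and 0.9. Recql, a DNA helicase of the RecQ family, is 1 of the 5 that were lower. Its normalized counts were 1337, 1417, 1218 and 1282 in Prmt5-null and 2614, 2876, 3131 and 2814 in control libraries (log2 change -1.12, SE 0.08, adjusted p = 2.53e-05 with limma). Its A5SS long form, over 42 bases, was at 0.034, 0.04, 0.075 and 0.042 in control and at 0.169, 0.183, 0.142 and 0.204 in Prmt5-null iGBs. Neither measure overlapped between the genotypes.

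Slc25a40 fell from 381.3, 525.1, 422.9 and 433.7 normalized counts in control to 225.9, 305.2, 165.5 and 213.9 in Prmt5-null libraries (log2 change -0.97, SE 0.18, adjusted p = 0.00392 with limma). Etv4, Phyhd1 and the noncoding RNA 1300002E11Rik also fell, by 1.15, 0.93 and 0.9 on the log2 scale. The largest rises were in Selo (0.95), Rrnad1 (0.92), Lrdd (0.9), Spef1 (0.89) and Sparc (0.83), all on the log2 scale. Lrdd encodes PIDD, a death domain protein induced by p53.

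Sparc is a matrix protein of fibroblasts, and its A3SS event differed by 3 bases with 9 reads in the shallowest library. Of 16 tested fibroblast markers 5 were higher and none lower in Prmt5-null libraries, and their summed normalized counts ran from 6283 to 10980 in control and from 9406 to 18500 in Prmt5-null libraries. The sum over 10 B cell markers ran from 193100 to 221600 and from 193600 to 233000, with 1 lower. Of the lists above, 1 of 89 splicing genes was lower, 1 of 54 tested repair genes higher and 4 lower, 2 of 48 chromatin genes lower, and 1 of 51 B cell and immune genes higher and 2 lower. Over all 16250 genes tested the shares were 3.49% higher and 2.99% lower, and nothing is read from the list counts. The part of residual feeder RNA in the levels was not tested.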

How the data were processed

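Total RNA of 8 iGB samples, 4 per genotype, given as independent biological samples, was depleted of rRNA and sequenced as paired reads. Per the labels and the study's methods, the authors trimmed reads with Trimmomatic 0.32, aligned them with STAR 2.3.0e to mm10 (GRCm38), counted them with featureCounts 1.4.4 and divided them by DESeq2 1.14.1 size factors. The deposited gene values are that normalized signal. All of them were whole multiples of 1 read (tolerance 0.01 reads), which gave back the counts. For splicing, the authors ran rMATS and deposited inclusion levels as a fraction, 4 entries per genotype that name no library, with the read counts behind them. The first group was taken as control after the study's stated direction of exon skipping, and positions in the lists are not tied to animals. The authors' p-values, FDR and difference columns were not used.

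Long exon length minus short exon length gave the alternative part. Levels from junction and target reads were used. Forms were placed on GENCODE M21 (GRCm38). No genome sequence was used here, so sites were read from transcripts. Genes whose normalized counts averaged 10 or more were compared with limma 3.58.1 (trend, Benjamini-Hochberg) in R 4.3.3 on log2(value + 1), on which scale changes of low genes are understated. edgeR 4.0.16 and DESeq2 1.42.0 were alternatives. The fits were tested on simulated data. Shares carry 95% Wilson, their differences Newcombe intervals. Python 3.11.15, pandas 2.3.3 and SciPy 1.17.1 were used. Strand use in counting is not given in the sources used here, so overlapping genes are uncertain.

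Named events are, per table, the 5 largest differences each way with 20 or more reads per library, the 2 on each side of 0.1, the 5 shortest and 3 longest parts, genes in both tables, and up to 6 per gene list. Some events that this rule names are not reported here. Named genes are the 5 largest called rises and falls, and Prmt5. Zfp202, Zfp961, Zscan25 and the event of Recql were picked once their values were known. The events, gene lists and rules were chosen with earlier results of these data known, so they are no independent support.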

Additional observations from a re-analysis of the deposited data

Results flagged for a closer look

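Among 160 groups of 4 values behind the named events and genes, 11 held a value far from the other 3, by Dixon's ratio at the 95% level. Chance flags about 1 in 20 groups of continuous values. That rate does not apply where the other 3 entries are equal, since any gap is then flagged. In control, the Nktr A5SS level was 0.703 in 1 entry against 0.562 to 0.58 in the others, Celf1 A3SS was 0.921 against 0.808 to 0.826, and Phf21a A3SS was 0.21 against 0.61 to 0.661. Ube2v1 A5SS had 0.892 and Uvssa A3SS 0.902 where the other entries were at 1. In Prmt5-null iGBs, Ccnl2 A3SS was 0.71 against 0.807 to 0.821 and Fam53a A3SS 0.68 against 0.593 to 0.603. Tnrc6c A5SS had 0.689, Etv4 A3SS 0.777 and Nfya A3SS 0.709 where the others were at 1, and Rps6kb2 A5SS had 0.66 where they were at 0.492. The shallowest library had 1 to 9 reads in Ube2v1, Uvssa, Phf21a, Etv4, Nfya and Rps6kb2, and 84 to 2078 in the other 5.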

How the results depend on the processing

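The A3SS share with a higher long form, 50.8%, lay on the other side of 50% at 46.7% with an absolute difference of at least 0.25 and at 47.6% without the events with a separate exon. The order of the classes in the share of multiples of 3 turned with 20 or more reads per library (A5SS 51.1%, A3SS 50%). It held without the events with a separate exon (A5SS 49.4%, A3SS 63.1%). In all, 119 of the recomputed values stayed within the interval or within 1.5 times of the value given. With an absolute difference of at least 0.25, 34.5% of 29 A5SS parts were a multiple of 3, and the medians of 30 A3SS events were 0.561 in control and 0.561 in Prmt5-null iGBs. Among events with 20 or more reads per library the median A3SS part was 80.5 bases (n = 74). With no minimum fold, 23 member genes were higher and 30 lower. Leaving out the events with a separate exon, chosen after seeing the data, gave a median A5SS part of 40.5 bases. The cause was not tested beyond the fewer events or the looser call that define each setting. Leaving out each list position in turn, the share with a higher long form stayed at 64.7% (A5SS) and 50.8% (A3SS), the median control level ran from 0.531 to 0.559 and from 0.633 to 0.651, and the Prmt5-null level from 0.6 to 0.63 and from 0.659 to 0.671. Without each library in turn, 8 to 11 member genes were higher and 13 to 19 lower, and the log2 change of Prmt5 ran from -3.12 to -2.81. Lengths and frames do not depend on libraries. The tables give both kinds of level for every event, so keeping events with junction reads alone was not run, and levels from junction reads were used for all instead, also chosen after seeing the data. No paired analysis was possible because the genotypes share no replicate numbers and no label ties the 2 experiments to libraries. Events with few reads limit the levels, with 20 reads per library reached by 131 A5SS and 74 A3SS events.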
